A study of Mus musculus with 12 samples.

Results

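Of 34 genes of blood coagulation, fibrinolysis and the kinin system, 31 were measured in the jejunum of mice after ligation of the common bile duct, out of 19938 genes that the array platform names with a single symbol. Serpins, the protease inhibitors of these cascades, were left out. Each gene was read from the probe set that carries its symbol alone and that had the highest mean over the 12 arrays. The rule left Klkb1, Cpb2 and F2rl1 without a value: the probe set of Klkb1, plasma prekallikrein, is shared with another gene, and the other two, a carboxypeptidase of fibrin and a protease-activated receptor, are not analysed here. All tissue came from 8-week-old male mice, killed on day 7 after surgery. There were 4 groups of 3 arrays each: A/J mice with common bile duct ligation (A/J CBDL), A/J mice with a sham operation (A/J sham), C57BL/6J mice with the ligation (B6 CBDL) and C57BL/6J mice with the sham operation (B6 sham). Sham mice had the laparotomy but no dissection of the duct. The question was which of these genes had more or less RNA in the jejunum of cholestatic mice, in which strain, and whether genes of factors that the liver makes moved apart from genes of factors made in the vessel wall and tissues.

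In coagulation, tissue factor on cells outside the vessel binds factor VII and starts a cascade of serine proteases that ends with thrombin, which cuts fibrinogen into fibrin. Thrombin also acts on platelets and vessel walls through protease-activated receptors, and with thrombomodulin it activates protein C, which stops the cascade. Plasmin, made from plasminogen by tissue-type and urokinase-type plasminogen activators, dissolves fibrin. Plasma kallikrein, with factor XII, releases bradykinin from high molecular weight kininogen, and bradykinin widens vessels and makes them leaky. Most of the plasma zymogens and fibrinogen are products of hepatocytes, several of them carboxylated with vitamin K, whose uptake from the gut needs bile. Activators, tissue factor and receptors are made by endothelium, epithelium, leukocytes and stroma. Of the measured genes, 17 of 19 listed were classed as liver-made, 6 of 6 as locally made (F3, Thbd, Tfpi, Plat, Plau and Vwf), 5 of 6 as receptors and 3 of 3 as of other or mixed source.

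Values are log2 signals as deposited, and differences are on that log2 scale. The labels call the 3 arrays of a group replicates and say no more. A p-value here speaks of the spread within groups, pooled over all 4 groups, and that spread may be technical. The SE of a comparison therefore also reflects groups outside it. The small number of arrays limits the precision. A gene was called when limma, fitted over all 12 arrays, gave a Benjamini-Hochberg adjusted p under 0.05 over 35556 probe sets. The array medians lay between 5.36 and 5.51. Enterocyte markers, a check of the labelled tissue, averaged 11.7 to 11.8 in every array. Among the genes measured, 16 hepatocyte markers (Cps1, Alb and Otc were the brightest) did not stay level. Their mean log2 signal per array was 8.49, 9.03 and 8.66 in A/J CBDL, against 5.69, 5.60 and 6.05 in A/J sham, and 8.44, 8.76 and 8.64 in B6 CBDL, against 6.64, 7.28 and 8.68 in B6 sham. Cps1 and Otc are also enzymes of the enterocyte and were at least 8.77 in every array. B6 sham replicate 3 therefore stood apart from the other B6 sham arrays and lay within the range of B6 CBDL, and the values of the main genes without it are given beside the comparisons that use the B6 sham group. In this bulk tissue, fewer cells of a type and less RNA per cell cannot be told apart. The group means of the marker lists of endothelium, platelets, macrophages and pancreatic acini spanned at most 0.17, and 2 of 10 endothelial markers were called between the sham groups, both higher in the A/J mice.

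In A/J mice, the jejunum held more RNA for plasma proteins of clot formation and clot lysis after the ligation. All 3 fibrinogen chains rose, Fgb by 38.2-fold and Fgg by 38.8-fold, and so did Kng1 and Kng2 (kininogens), Plg (plasminogen), F2 (prothrombin) and F9 (factor IX, the protease that haemophilia B lacks). Among the 31 members, 8 were called higher and 0 lower in A/J CBDL than in A/J sham, where 0.818% of all probe sets were called, 0.63% higher and 0.188% lower. All 8 were liver-made. At an unadjusted p under 0.05, 16 of the 31 passed, against 14.2% of all probe sets. The hepatocyte markers moved with them, with 11 of 16 called higher and 0 lower, and their part in the result was not tested.

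The fibrinogen chains showed the widest gaps. Fgb, the fibrinogen beta chain (probe set 10498981), had log2 signals of 9.43, 9.34 and 9.33 in A/J CBDL, against 3.94, 3.66 and 4.73 in A/J sham. Fgg, the gamma chain (probe set 10492735), had 9.0, 9.20 and 8.95 in A/J CBDL, against 3.23, 3.92 and 4.17 in A/J sham. Fga, the alpha chain (probe set 10492748), had 6.45, 6.63 and 6.35 in A/J CBDL, against 4.98, 4.90 and 4.65 in A/J sham. Every ligated array lay above every sham array for the 3 genes, and the A/J CBDL arrays lay close together. The A/J sham signals of all 3 genes were below the lowest array median of 5.36, so their folds start from a low signal. The log2 difference was 5.26 for Fgb (SE 0.49, adjusted p = 0.00137, 38.2-fold), 5.28 for Fgg (SE 0.47, adjusted p = 0.00102, 38.8-fold) and 1.64 for Fga (SE 0.23, adjusted p = 0.00832, 3.11-fold). The alpha chain has a second, dimmer probe set with its symbol alone, and there the log2 difference was 0.55 and was not called (adjusted p = 0.122).

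The 3 fibrinogen genes lie side by side on mouse chromosome 3 and are shown here because all 3 were called higher in A/J mice after CBDL. Fga rose less than Fgb and Fgg. Their promoters were taken as the 250 bases before the annotated start in RefSeq (GRCm38.p6). Both strands were searched for letters of sites that liver and acute phase factors bind. The letters were GTTAAT for a half-site of HNF1, TTGCNNAA for C/EBP and TTCNNNGAA for STAT. CAAAGTCCA stood for HNF4 and CTGGGAA for the IL-6 response element of fibrinogen genes. The last motif was added after the windows had been read, so its matches in them carry no weight. The count of member promoters with it, given below, includes Fgb and Fgg. Matches are in capitals. The window of Fga is chr3:83025903-83026152 on the plus strand, that of Fgb is chr3:83049864-83050113 on the minus strand and that of Fgg is chr3:83007474-83007723 on the plus strand, each written 5′ to 3′ along its gene.
Fga: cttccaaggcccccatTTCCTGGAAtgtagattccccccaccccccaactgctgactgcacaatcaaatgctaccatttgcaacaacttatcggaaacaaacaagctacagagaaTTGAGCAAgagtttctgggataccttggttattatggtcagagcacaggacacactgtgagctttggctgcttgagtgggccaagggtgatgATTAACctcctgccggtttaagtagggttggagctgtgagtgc
Fgb: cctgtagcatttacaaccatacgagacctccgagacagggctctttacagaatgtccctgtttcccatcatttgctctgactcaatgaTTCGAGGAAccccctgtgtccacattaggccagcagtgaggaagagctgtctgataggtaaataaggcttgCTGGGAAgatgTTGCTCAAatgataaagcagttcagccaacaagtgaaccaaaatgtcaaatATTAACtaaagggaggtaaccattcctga
Fgg: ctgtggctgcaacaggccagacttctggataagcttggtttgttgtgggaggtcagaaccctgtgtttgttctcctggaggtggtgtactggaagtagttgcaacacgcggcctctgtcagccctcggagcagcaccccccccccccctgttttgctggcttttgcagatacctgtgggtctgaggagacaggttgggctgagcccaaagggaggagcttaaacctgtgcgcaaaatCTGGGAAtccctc
The Fga window held an HNF1 half-site match 43 to 38 bases upstream of the start. It also held a C/EBP match at 135 to 128 and a STAT match at 234 to 226. The Fgb window held an HNF1 half-site match at 29 to 24 and a C/EBP match at 80 to 73. It also held an IL-6 element at 91 to 85 and a STAT match at 162 to 154. In the Fgg window, the only match was an IL-6 element, at 13 to 7. Over 32851 mouse promoters of the same length, 6.43% held the HNF1 letters, 9.56% those of C/EBP, 7.02% those of STAT, 0.384% those of HNF4 and 9.1% those of the IL-6 element. Over 26 promoters of 24 members in the table, 4 held the HNF1 letters, 8 those of C/EBP, 4 those of STAT, 0 those of HNF4 and 4 those of the IL-6 element. A match describes letters only.

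**Figure D1:**
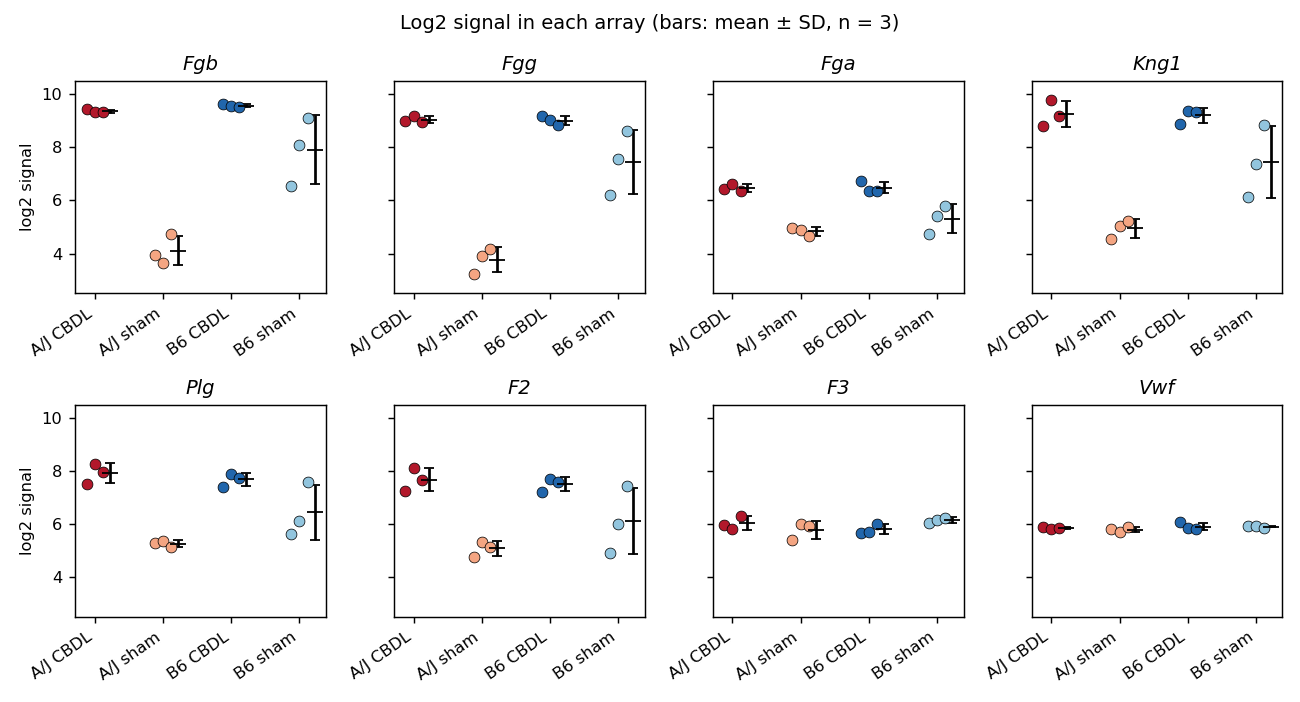
Log2 signal (vertical axis) of 8 genes in each of the 12 arrays, by group. Points are arrays and bars are the mean ± SD (n = 3). For Fgb, Fgg and Kng1, A/J sham is at most 5.24 and both ligated groups are at least 8.80, with the B6 sham arrays spread between 6.13 and 9.12, while F3 and Vwf stay between 5.39 and 6.31 in all groups.

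Among the proteases and their vitamin K-dependent relatives, F2 and F9 were called. F2 (probe set 10485027) had log2 signals of 7.25, 8.13 and 7.66 in A/J CBDL, against 4.75, 5.34 and 5.16 in A/J sham. F9 (probe set 10599826) had 4.42, 4.54 and 4.73 in A/J CBDL, against 3.29, 3.24 and 3.12 in A/J sham. Neither gene had overlapping groups. F9 was at low signal, at most 4.73 in any array. The log2 difference was 2.60 for F2 (SE 0.49, adjusted p = 0.0372, 6.05-fold) and 1.35 for F9 (SE 0.27, adjusted p = 0.0494, 2.55-fold). Both calls were close to the threshold, and each depended on 10 of the 12 arrays: leaving out any 1 of them raised the adjusted p above the threshold, to 0.148 at most for F2 and 0.155 for F9. F10, the protease that makes thrombin with its cofactor factor V, had a difference of 0.66 (adjusted p = 0.105) and F5, that cofactor, 0.83 (adjusted p = 0.0703). Neither F10 nor F5 was called, although their groups did not overlap. F7, the partner of tissue factor, had 0.46 (adjusted p = 0.296) with groups that overlapped.

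The kinin substrates rose with fibrinogen. Kng1 (probe set 10434719) had log2 signals of 8.80, 9.78 and 9.17 in A/J CBDL, against 4.56, 5.05 and 5.24 in A/J sham. Kng2, the product of a second kininogen gene of the mouse (probe set 10438681), had 6.43, 6.94 and 6.75 in A/J CBDL, against 5.08, 4.72 and 4.07 in A/J sham. The groups were apart in both genes. The log2 difference was 4.30 for Kng1 (SE 0.54, adjusted p = 0.00622, 19.7-fold) and 2.09 for Kng2 (SE 0.36, adjusted p = 0.0244, 4.25-fold). The call of Kng2 ended without A/J sham replicate 2 or any 1 of the A/J CBDL arrays (adjusted p from 0.0537 to 0.105) and with the replicate number as a block (0.0519). The paralogs are close in sequence, and how far their probes read each other was not tested. F12, which starts the contact pathway, had 0.70 (adjusted p = 0.235). F11, the next protease of that pathway, was level: its 95% interval ran from -0.35 to 0.35.

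Plasminogen was the called gene of fibrinolysis. Plg (probe set 10441753) had log2 signals of 7.52, 8.27 and 7.95 in A/J CBDL, against 5.29, 5.38 and 5.13 in A/J sham, with no overlap. The log2 difference was 2.65 (SE 0.40, adjusted p = 0.0124, 6.27-fold), and the call ended without A/J sham replicate 2 (adjusted p = 0.0608) or A/J CBDL replicate 2 (0.0680). The remaining liver-made genes were not called. F13b, the carrier subunit of the factor that crosslinks fibrin, had 0.92 (adjusted p = 0.269) and Proc, the anticoagulant protein C, had 0.62 (adjusted p = 0.149), both with groups apart. Pros1, the cofactor of protein C, which other tissues also make, had 0.12 (95% interval -0.39 to 0.64), and Proz, the vitamin K-dependent protein Z, had -0.02 (-0.35 to 0.32). In all, 15 of the 31 members had A/J CBDL arrays entirely above the A/J sham arrays and 0 entirely below, against 8.04% and 9.07% of all probe sets.

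The count of 8 was 4 without A/J sham replicate 2 or A/J CBDL replicate 2, and 5 without A/J CBDL replicate 1 or 3. It was 6 without A/J sham replicate 1, the array least correlated with the others. Fgb, Fgg and Kng1 were called with every array left out in turn, and their differences then ran from 5.03 to 5.57, from 5.01 to 5.48 and from 4.03 to 4.52.

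**Figure D2:**
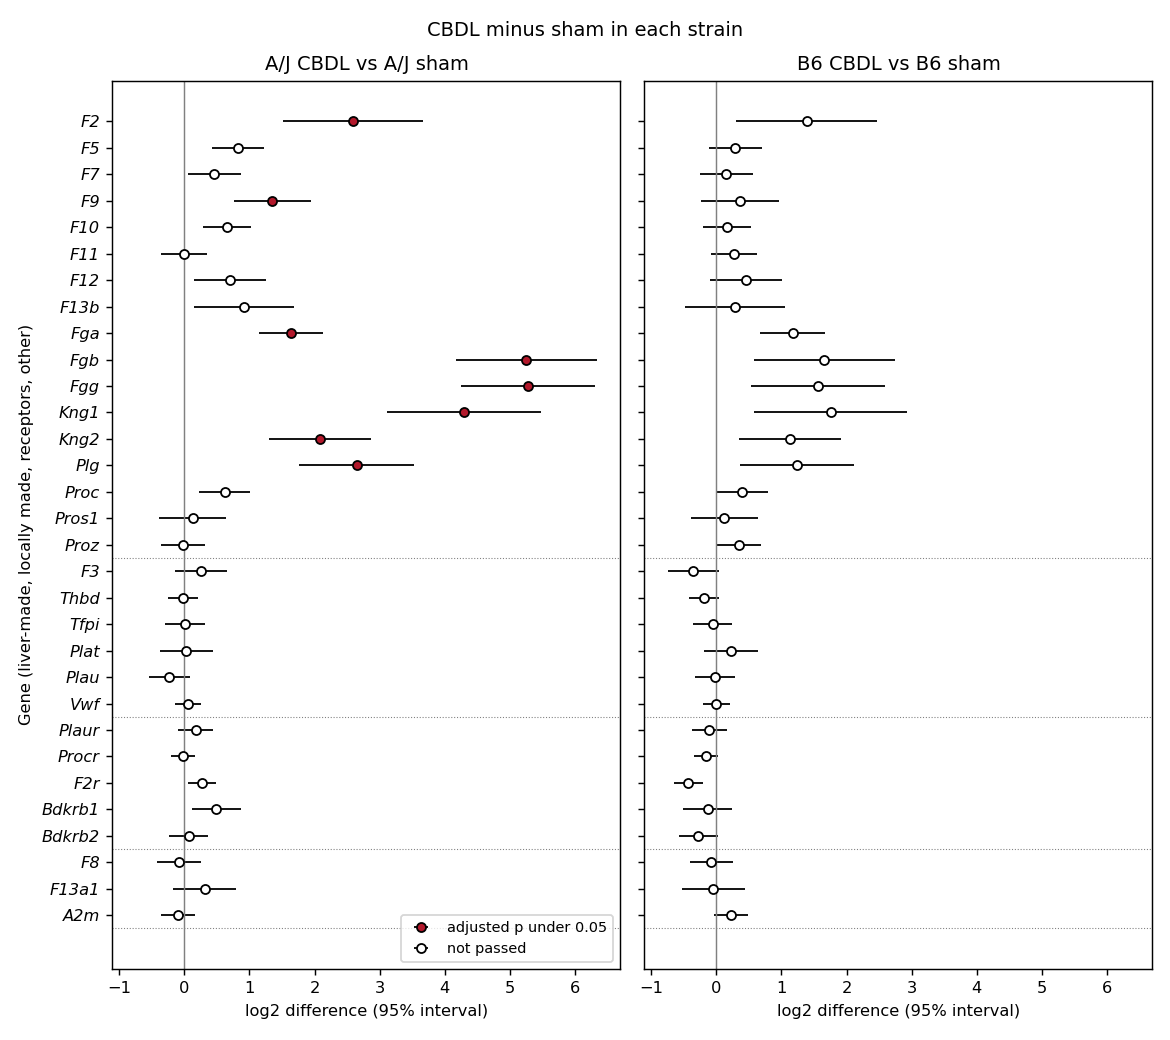
Log2 difference of CBDL minus sham with its 95% interval (horizontal axis) for the 31 genes, in A/J mice on the left and in B6 mice on the right. Filled points have an adjusted p under 0.05: 8 genes in A/J mice and 0 in B6 mice, where all 17 liver-made genes still lie to the right of 0.

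In B6 mice the same liver-made genes had positive differences of smaller size, and no member was called. Of the 31 members, 0 were called by limma, against 0.0534% of all probe sets, and 10 passed at an unadjusted p under 0.05, against 7.64% of all probe sets. All 17 liver-made genes had a positive log2 difference, with a median of 0.40 against -0.00 over all probe sets. For Fga, the log2 signals were 6.72, 6.37 and 6.37 in B6 CBDL, against 4.73, 5.43 and 5.79 in B6 sham. Its difference was 1.17 (SE 0.23, adjusted p = 0.111), the lowest adjusted p among the members. With the test limited to probe sets of 1 gene symbol, Fga was called (adjusted p = 0.0199), and with array weights too (0.0375).

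The width of the B6 sham group marked the other genes. Fgb had log2 signals of 9.63, 9.57 and 9.53 in B6 CBDL, against 6.56, 8.07 and 9.12 in B6 sham. Fgg had 9.17, 9.02 and 8.83 in B6 CBDL, against 6.19, 7.56 and 8.60 in B6 sham. Kng1 had 8.90, 9.39 and 9.33 in B6 CBDL, against 6.13, 7.36 and 8.86 in B6 sham. In each of them the ligated arrays were tight and just above the highest sham array, while the sham arrays lay far apart. The differences were 1.66 for Fgb (SE 0.49, adjusted p = 0.348), 1.55 for Fgg (SE 0.47, adjusted p = 0.356) and 1.76 for Kng1 (SE 0.54, adjusted p = 0.366).

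Prothrombin, plasminogen and the second kininogen had the same shape. F2 had log2 signals of 7.21, 7.70 and 7.60 in B6 CBDL, against 4.93, 6.0 and 7.43 in B6 sham (difference 1.39, adjusted p = 0.470). Plg had 7.41, 7.90 and 7.75 in B6 CBDL, against 5.63, 6.11 and 7.60 in B6 sham (difference 1.24, adjusted p = 0.403). Kng2 had 6.73, 7.07 and 6.94 in B6 CBDL, against 4.94, 5.87 and 6.54 in B6 sham (difference 1.13, adjusted p = 0.383). The highest sham array reached the ligated range in F2 and Plg but not in Kng2. F9, with 4.41, 4.35 and 3.99 in B6 CBDL, against 3.38, 3.61 and 4.67 in B6 sham, had its highest value in a sham array (difference 0.36, adjusted p = 0.869). That array was B6 sham replicate 3 in each of these genes, the array whose hepatocyte marker mean of 8.68 lay within the B6 CBDL range of 8.44 to 8.76.

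Without B6 sham replicate 3, 3 members were called in B6 mice: Kng1 with 2.46 (adjusted p = 0.0423), Plg with 1.82 (0.0173) and Fga with 1.41 (0.0318). Fgb had 2.26 (adjusted p = 0.0701), Fgg 2.13 (0.0678), F2 2.04 (0.0535), Kng2 1.51 (0.153) and F9 0.75 (0.119), and these 5 were still not called. The median over the liver-made genes was then 0.75. Without B6 sham replicate 1 instead, 0 members were called. The difference was in that case 1.09 for Kng1 (adjusted p = 0.634), 0.83 for Plg (0.715) and 0.88 for Fga (0.178). Fgb had 0.98 (0.536), Fgg 0.92 (0.555) and F13b -0.19 (0.967). Of the hepatocyte markers, 0 of 16 were called in B6 mice with all arrays and 15 of 16 had a positive difference. Members with B6 CBDL entirely above B6 sham were 7 of 31 (7.89% of all probe sets), 6 of them liver-made, and 5 of 31 were entirely below (7.62%), none of them liver-made: F3, Thbd, Procr, F2r and Bdkrb2.

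**Figure D3:**
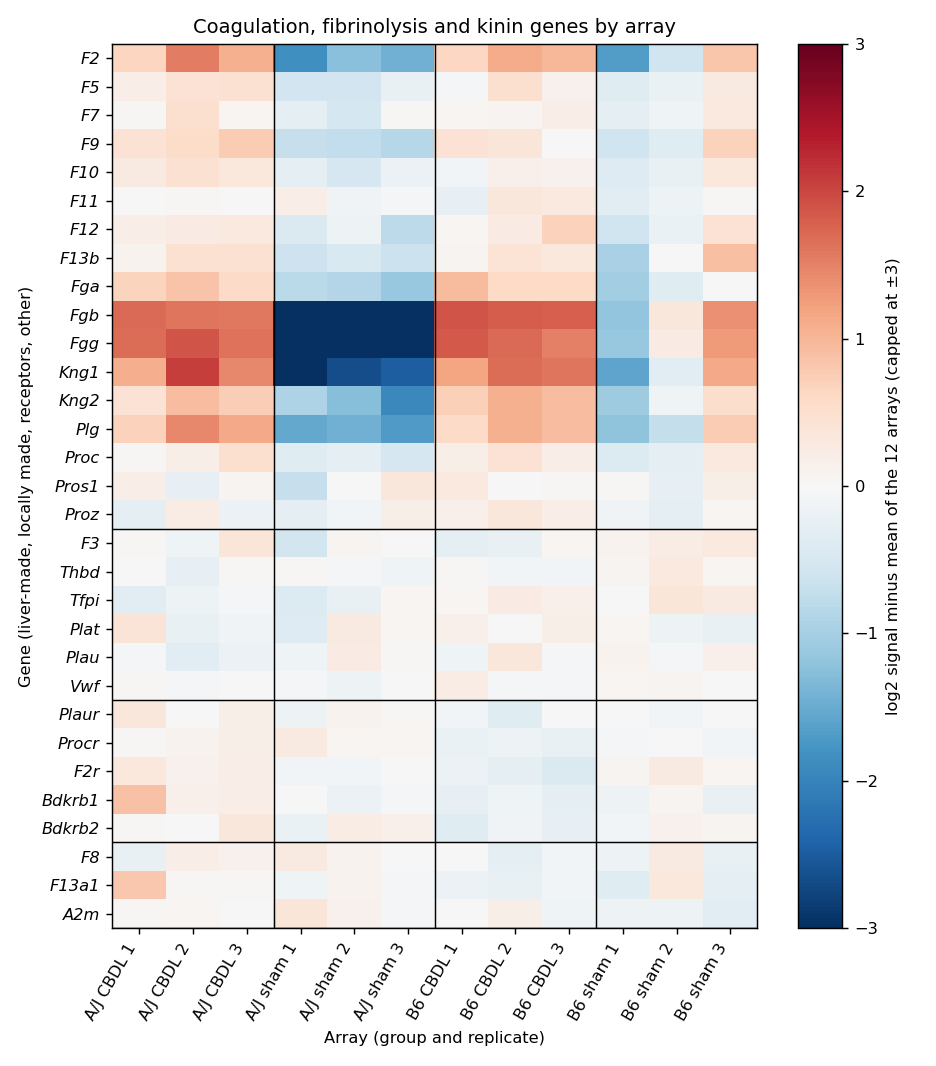
Log2 signal of each of the 31 genes minus its mean over the 12 arrays (color, capped at 3 in either direction), with arrays as columns and genes as rows by class. The A/J sham columns are low for Fgb, Fgg and Kng1, the B6 sham columns differ among themselves, and the rows below the first line, of locally made genes, receptors and others, are pale.

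Between the sham groups, A/J mice had less RNA for the beta and gamma chains of fibrinogen and for Kng1 than B6 mice, while Fga and Kng2 were not called. Of the 31 members, 0 were called higher and 3 lower in A/J sham, where 1.87% of all probe sets were called, 0.579% higher and 1.29% lower. Fgb averaged 4.11 ± 0.55 in A/J sham, against 7.92 ± 1.29 in B6 sham (SD, n = 3 each), a log2 difference of -3.80 (SE 0.49, adjusted p = 0.00291 from limma). Fgg averaged 3.77 ± 0.48 in A/J sham, against 7.45 ± 1.21 in B6 sham, a difference of -3.68 (SE 0.47, adjusted p = 0.0026). Kng1 averaged 4.95 ± 0.35 in A/J sham, against 7.45 ± 1.37 in B6 sham, a difference of -2.50 (SE 0.54, adjusted p = 0.0417). No sham array of one strain reached the range of the other in these 3 genes. Fga had 4.98, 4.90 and 4.65 in A/J sham, against 4.73, 5.43 and 5.79 in B6 sham, with groups that overlapped and a difference of -0.48 (SE 0.23, adjusted p = 0.343). Kng2 had -1.16 (adjusted p = 0.151), Plg -1.18 (adjusted p = 0.189) and F2 -1.04 (adjusted p = 0.342), and were not called.

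The hepatocyte markers again moved with these genes, with 0 of 16 called higher and 4 lower in A/J sham, and their part was not tested. Without B6 sham replicate 3, Fgb had -3.20 and Fgg -3.10, both still called, and Kng1 had -1.79 (adjusted p = 0.0643). Fga, Kng2, Plg and F2 then had -0.24, -0.78, -0.60 and -0.38. Without B6 sham replicate 1 instead, the differences were wider, with -4.48 for Fgb, -4.31 for Fgg and -3.16 for Kng1. With only the 6 sham arrays in the fit, none of the 3 passed, with adjusted p of 0.0634 for Fgb, 0.0559 for Fgg and 0.214 for Kng1. Of the 31 members, 8 had A/J sham entirely below B6 sham and 2 entirely above, against 9.53% and 9.15% over the whole array. These values share the A/J sham arrays with the A/J comparison of ligation.

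After ligation, limma detected no difference between the strains in the liver-made genes. None of them was called between A/J CBDL and B6 CBDL, and 0 of 17 passed at an unadjusted p under 0.05 (13.7% of all probe sets did), with differences between -0.31 and 0.31. The 95% intervals of the genes called elsewhere were wide. They use the spread pooled over all 4 groups, and in B6 sham the SD was 1.29 for Fgb and 1.37 for Kng1. With only the 6 ligated arrays in the fit, 0 members were called. Fgb averaged 9.37 ± 0.06 in A/J CBDL, against 9.58 ± 0.05 in B6 CBDL, a difference of -0.21 (95% interval -1.30 to 0.88). Kng1 averaged 9.25 ± 0.50 in A/J CBDL, against 9.20 ± 0.27 in B6 CBDL, a difference of 0.05 (-1.13 to 1.23). The interval for Fga, the narrowest among the fibrinogen chains, was -0.51 to 0.48. Among all 31 members, 1 was called, the thrombin receptor gene F2r, against 1.78% of all probe sets called, 0.562% higher and 1.22% lower. In 7 of the 31 the A/J CBDL arrays lay entirely above the B6 CBDL arrays and in 2 entirely below, against 10.4% and 11.3% of all probe sets. Among the 17 liver-made genes, 2 lay entirely above and 1, Fgb, entirely below.

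Whether the response to ligation differed between the strains was tested by the interaction of strain and CBDL. No member was called, against 0.0366% of all probe sets, and 8 of 31 passed at an unadjusted p under 0.05, against 6.88% of all probe sets. The A/J response exceeded the B6 response by 3.72 for Fgg (SE 0.66, adjusted p = 0.204), by 3.60 for Fgb (SE 0.70, adjusted p = 0.307) and by 2.54 for Kng1 (SE 0.76, adjusted p = 0.568). Of these, Fgg and Fgb were called without B6 sham replicate 1, with 4.35 and 4.28 (adjusted p = 0.0119 for both). No member was called with any other array left out. Without B6 sham replicate 3, which stood apart in hepatocyte markers, the values were 3.15 for Fgg (adjusted p = 0.108), 3.00 for Fgb (0.166) and 1.84 for Kng1 (0.629). Without B6 sham replicate 2 they were 3.67 for Fgg (0.441) and 3.52 for Fgb (0.525). The interaction uses the same arrays as the comparisons within each strain.

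Averaged over both strains, fibrinogen, kininogens, plasminogen and prothrombin were higher after CBDL. Of the 31 members, 7 were called higher and 0 lower, against 1.74% of all probe sets called, 1.12% higher and 0.616% lower. Fgb rose by 3.46 on the log2 scale (SE 0.35, adjusted p = 0.00118), Fgg by 3.42 (SE 0.33, adjusted p = 0.00104) and Kng1 by 3.03 (SE 0.38, adjusted p = 0.00367). F2 rose by 1.99 (SE 0.35, adjusted p = 0.0176), Plg by 1.94 (SE 0.28, adjusted p = 0.00801), Kng2 by 1.61 (SE 0.25, adjusted p = 0.0117) and Fga by 1.40 (SE 0.16, adjusted p = 0.00209). F9, with 0.86 (adjusted p = 0.0514), missed the threshold. The count was 13 without B6 sham replicate 3, where F5, F9, F10, F12, F13b and Proc were called too, and 7 without B6 sham replicate 1. With all arrays, 12 of 16 hepatocyte markers were called higher on average over the strains. These averages span unlike sizes: Fgb had 5.26 in A/J and 1.66 in B6 mice, and Kng1 4.30 and 1.76. No member was called in B6 mice alone or in the interaction.

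**Figure D4:**
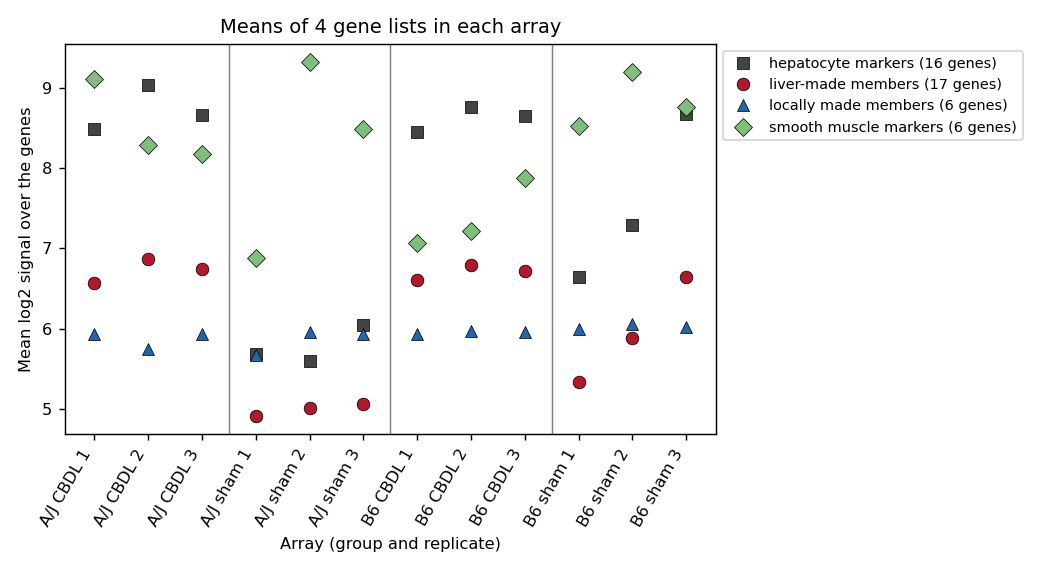
Mean log2 signal (vertical axis) of 4 gene groups in each of the 12 arrays: 17 liver-made members, 6 locally made members, 16 hepatocyte markers and 6 smooth muscle markers. The liver-made mean is 6.57 to 6.87 in A/J CBDL, against 4.91 to 5.06 in A/J sham, and its B6 sham arrays run from 5.34 to 6.65, while the locally made mean stays between 5.68 and 6.05.

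In A/J mice 8 of the 17 liver-made genes and 0 of the 6 locally made genes were called after CBDL, against 0.818% of all probe sets. In B6 mice none of either class was called, against 0.0534%. The mean log2 signal of the 17 liver-made genes was 6.57, 6.87 and 6.74 in A/J CBDL, against 4.91, 5.01 and 5.06 in A/J sham. It was 6.60, 6.79 and 6.72 in B6 CBDL, against 5.34, 5.88 and 6.65 in B6 sham. The mean of the 6 locally made genes was 5.94, 5.74 and 5.94 in A/J CBDL, against 5.68, 5.96 and 5.93 in A/J sham, and 5.94, 5.97 and 5.96 in B6 CBDL, against 5.99, 6.05 and 6.02 in B6 sham. B6 sham replicate 3 was the highest of its group in the liver-made mean and in the hepatocyte marker mean, and not in the locally made mean. The median log2 difference of liver-made genes was 0.92 in A/J mice and 0.40 in B6 mice after CBDL, against 0.02 and -0.04 for locally made genes and -0.01 and -0.00 for all probe sets. For A/J sham minus B6 sham it was -0.48 in liver-made genes and -0.15 in locally made genes, and for A/J CBDL minus B6 CBDL 0.04 and -0.08. The liver-made medians depended on single B6 sham arrays: the sham median was -0.18 without B6 sham replicate 3 and -0.77 without B6 sham replicate 1, and the B6 median after CBDL was 0.75 without replicate 3 and 0.26 without replicate 1. The groups of genes were chosen with results of these data known, so no p is given for them.

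None of the 6 locally made genes was called in any of the 6 comparisons, where 0.0366% to 1.87% of all probe sets were called. A count of 0 among 6 is near those shares and does not set the class apart. F3, tissue factor (probe set 10495675), had log2 signals of 5.99, 5.82 and 6.31 in A/J CBDL, against 5.39, 6.02 and 5.94 in A/J sham, and 5.67, 5.72 and 6.01 in B6 CBDL, against 6.06, 6.16 and 6.25 in B6 sham. It was the locally made gene with the widest differences after CBDL, 0.26 in A/J mice (95% interval -0.14 to 0.65) and -0.35 in B6 mice (-0.75 to 0.04), and the difference between these responses was 0.61 (adjusted p = 0.703). Thbd, thrombomodulin of the endothelium, had 6.45, 6.20 and 6.49 in A/J CBDL, against 6.48, 6.42 and 6.32 in A/J sham, and 6.48, 6.35 and 6.36 in B6 CBDL, against 6.53, 6.73 and 6.51 in B6 sham. Its differences were -0.03 in A/J mice (-0.26 to 0.20) and -0.19 in B6 mice (-0.42 to 0.04), where the groups did not overlap.

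Tfpi, the inhibitor of tissue factor and factor VII, had log2 signals of 6.08, 6.25 and 6.36 in A/J CBDL, against 6.0, 6.19 and 6.46 in A/J sham, and 6.46, 6.65 and 6.57 in B6 CBDL, against 6.41, 6.77 and 6.67 in B6 sham. It differed more by strain than by operation, with -0.40 in sham mice, A/J minus B6 (adjusted p = 0.195), and -0.33 in ligated mice (adjusted p = 0.320), against 0.01 and -0.06 after CBDL in A/J and B6 mice. Vwf, the von Willebrand factor that tethers platelets and is stored in endothelium, had 5.89, 5.81 and 5.84 in A/J CBDL, against 5.81, 5.70 and 5.88 in A/J sham, and 6.08, 5.84 and 5.81 in B6 CBDL, against 5.91, 5.94 and 5.87 in B6 sham. Its intervals were the tightest of the class, -0.15 to 0.25 in A/J mice and -0.20 to 0.20 in B6 mice.

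The plasminogen activators were not called and, in A/J mice, did not rise with plasminogen. Plat, the tissue-type activator, had log2 signals of 5.38, 4.78 and 4.90 in A/J CBDL, against 4.61, 5.28 and 5.07 in A/J sham, and 5.16, 4.99 and 5.19 in B6 CBDL, against 5.05, 4.85 and 4.77 in B6 sham. Plau, the urokinase-type activator, had 5.83, 5.58 and 5.73 in A/J CBDL, against 5.77, 6.14 and 5.92 in A/J sham, and 5.77, 6.24 and 5.84 in B6 CBDL, against 5.99, 5.87 and 6.04 in B6 sham. Groups overlapped in both genes and in all comparisons of 2 groups. The intervals after CBDL were -0.38 to 0.44 in A/J and -0.19 to 0.63 in B6 mice for Plat, and -0.54 to 0.08 and -0.33 to 0.29 for Plau. The A/J bounds lie below the difference of 2.65 that Plg had in A/J mice. In B6 mice Plg itself was not called. Its difference there was 1.24, or 0.83 without B6 sham replicate 1 and 1.82 without replicate 3. The B6 values therefore do not show whether the activators moved with it.

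Of the 5 receptors, F2r was called, and in 1 comparison. F2r, the thrombin receptor PAR1 (probe set 10411229), had log2 signals of 7.53, 7.33 and 7.41 in A/J CBDL, against 7.11, 7.11 and 7.21 in A/J sham, and 7.03, 6.93 and 6.77 in B6 CBDL, against 7.29, 7.46 and 7.26 in B6 sham. The A/J CBDL arrays lay above all A/J sham and all B6 CBDL arrays, as in 8.04% and 10.4% of all probe sets. The B6 CBDL arrays lay below all B6 sham arrays, as in 7.62%. The difference between A/J CBDL and B6 CBDL was 0.51 (SE 0.10, adjusted p = 0.0258, 1.43-fold). Within strains it was 0.27 in A/J mice (adjusted p = 0.242) and -0.43 in B6 mice (adjusted p = 0.182), and the interaction of 0.70 (SE 0.14, adjusted p = 0.319) was not called. The strain call ended without B6 CBDL replicate 2 or 3 or A/J CBDL replicate 1 or 3 (adjusted p from 0.0856 to 0.0955), and with only the 6 ligated arrays (0.0882).

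Smooth muscle, where PAR1 is also found, varied between the arrays. The mean of 6 smooth muscle markers was 9.11, 8.28 and 8.18 in A/J CBDL, against 6.88, 9.32 and 8.48 in A/J sham, and 7.06, 7.22 and 7.88 in B6 CBDL, against 8.53, 9.19 and 8.76 in B6 sham. None of the 6 was called in any comparison. All 6 had A/J CBDL arrays entirely above the B6 CBDL arrays, against 10.4% of all probe sets. All 6 also had B6 CBDL arrays entirely below the B6 sham arrays, against 7.62%. In A/J mice the groups overlapped in all 6. Their part in the F2r result was not tested.

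The kinin receptors and the receptors of urokinase and protein C were not called. Bdkrb1, the bradykinin receptor that is induced in inflammation, had 6.06, 5.34 and 5.38 in A/J CBDL, against 5.18, 5.0 and 5.12 in A/J sham, and 4.94, 5.05 and 4.88 in B6 CBDL, against 5.05, 5.27 and 4.97 in B6 sham. Its difference was 0.49 in A/J mice (adjusted p = 0.231) and 0.63 in ligated mice, A/J minus B6 (adjusted p = 0.107), and A/J CBDL replicate 1 lay above the rest. Bdkrb2, the constitutive bradykinin receptor, ranged from 5.45 to 6.15 over the arrays. Plaur, the urokinase receptor, and Procr, the endothelial protein C receptor, had differences between A/J CBDL and B6 CBDL of 0.31 (adjusted p = 0.279) and 0.30 (adjusted p = 0.132). All 5 receptor genes had a positive difference there, and all 5 a negative one in B6 mice after CBDL. These comparisons share the B6 CBDL arrays.

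The remaining genes were at low signal and not called. F8, the cofactor that haemophilia A lacks, ranged from 3.55 to 4.08, F13a1, the catalytic subunit of the fibrin crosslinking factor, which macrophages and platelets make, from 4.10 to 5.26, and A2m, a broad protease inhibitor, from 3.79 to 4.44. F13a1 was highest in A/J CBDL replicate 1, the array that was also highest for Bdkrb1.

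Of 30 further genes around these pathways (vitamin K cycle, kinin-degrading peptidases, clearance receptors and plasminogen receptors), 28 were measured. In A/J mice 2 were called higher and 0 lower, Hrg and Asgr1, against 0.63% and 0.188% of all probe sets. In B6 mice 0 were called, against 0.0534%, and 4 passed at an unadjusted p under 0.05, against 7.64%. Hrg, the histidine-rich glycoprotein that binds plasminogen and fibrinogen and is another hepatocyte product, had log2 signals of 6.65, 7.04 and 6.48 in A/J CBDL, against 3.68, 4.16 and 3.88 in A/J sham (difference 2.81, SE 0.45, adjusted p = 0.0156). Asgr1, a subunit of the hepatocyte receptor that clears desialylated glycoproteins, had 5.20, 5.29 and 5.51 in A/J CBDL, against 4.56, 4.49 and 4.46 in A/J sham (difference 0.83, SE 0.16, adjusted p = 0.0454). The groups were apart in both genes. Hpn, a membrane protease of hepatocytes that can activate factor VII, was called on average over both strains, with Hrg and Asgr1 (0.46, adjusted p = 0.0454). Xpnpep2, a membrane aminopeptidase that cleaves bradykinin, was higher in A/J CBDL than in B6 CBDL, with 10.3, 10.3 and 10.2 against 9.07, 9.06 and 9.02 (difference 1.22, SE 0.26, adjusted p = 0.0429). In the sham groups, A/J minus B6, its difference was 0.90 (adjusted p = 0.129). The vitamin K cycle genes Ggcx, Vkorc1 and Vkorc1l1 were not called in any of the 6 comparisons.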

How the data were processed

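Total RNA of mouse jejunum was measured on 12 Affymetrix arrays, 3 for each of A/J CBDL, A/J sham, B6 CBDL and B6 sham. The authors deposited a log2 signal for each of 35556 probe sets. Their processing notes list RMA and Affymetrix Expression Console, whereas the methods of the study name GCRMA and another array type, and no source used here gives a version. The deposited values (1.57 to 14.4) were used with no further normalization. The platform table gave 1 gene symbol to 21789 probe sets, several to 1621 and none to 12146. The probe set with a gene's symbol alone and the highest mean over the arrays stood for the gene.

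All probe sets and arrays entered 1 linear model, with a mean for every group, in limma (version 3.58.1, R 4.3.3). Variances were moderated by empirical Bayes, p-values were adjusted by Benjamini-Hochberg, intervals cover 95%, and the fit was tested on simulated data. Values in every array were to be given for called and for locally made genes, other members by range, and of the related genes the called ones. The members and gene lists were chosen with earlier results of these data known, so lists are described by counts and medians beside all probe sets, with no test. The groups were compared within strain, between strains, by the interaction and averaged over strains. Arrays were not treated as paired by replicate number. Alternatives were the arrays in the fit, a filter on the 30% dimmest probe sets, probe sets of 1 symbol, quantile or median scaling, the prior, array weights, a replicate block, a fold over 2, the dimmest probe set of a gene, the mean over members, and each array left out. Promoter windows of RefSeq (GRCm38.p6) were searched with exact letters. The number of arrays limits the precision. Values of quantitative PCR were not analysed here.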

Additional observations from a re-analysis of the deposited data

Results flagged for a closer look

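F2r, the thrombin receptor gene, was flagged because its groups were apart in both strains, with opposite signs after CBDL. All 3 A/J CBDL arrays were above the 3 A/J sham arrays, as in 8.04% of all probe sets. All 3 B6 CBDL arrays were below the 3 B6 sham arrays, as in 7.62%. How many probe sets had both was not counted. Neither difference of F2r within a strain was called. The A/J response minus the B6 response was 0.70 on the log2 scale (SE 0.14). The interaction test of limma gave an adjusted p of 0.319, so the difference between the strains was not called. The median of the smooth muscle markers had the same sign as F2r in both strains, 0.29 in A/J mice and -1.42 in B6 mice. In A/J mice the groups overlapped in all 6 markers. Their mean was 9.11, 8.28 and 8.18 in A/J CBDL, against 6.88, 9.32 and 8.48 in A/J sham. The low A/J sham replicate 1 thus weighs on the A/J sign. The part of these markers in the F2r result was not tested.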

How the results depend on the processing

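Over 19 calls of a member in a comparison and 393 alternatives of them, 339 kept the call, 54 lost it and 0 reversed. Fgb, Fgg and Kng1 in A/J mice kept it in all of theirs, and Fga lost it with its dimmer probe set. F9 in A/J mice lost it in 14 of 20, among them quantile scaling (adjusted p = 0.0506), median scaling (0.0623), a trended and robust prior (0.0514) and 10 single arrays. In A/J mice F2 lost it in 10, Kng2 in 5 and Plg in 2. Of the sham calls, that of Kng1 was lost in 11 and those of Fgb and Fgg in 1 each, the fit to the 6 sham arrays. The averaged call of F2 was lost in 2 and the call of F2r in 7.

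The A/J count of 8 ran from 4 to 10 with single arrays left out. The B6 count of 0 was 1 among probe sets of 1 gene symbol, 1 with array weights and 0 to 3 with single arrays left out. The count between the shams, 3, was 0 with only the 6 arrays compared and 2 to 4 with single arrays left out. The count between A/J CBDL and B6 CBDL, 1, was 2 among probe sets of 1 gene symbol (with Bdkrb1), 2 with array weights (with Procr), 0 with only the 6 arrays compared, 0 above 2-fold and 0 to 1 with single arrays left out. The interaction count of 0 was 0 to 2 with single arrays left out. The averaged count of 7 was 11 with array weights and 6 to 13 with single arrays left out. With the mean in place of the median, the liver-made difference was 1.73 in A/J mice, 0.75 in B6 mice and -0.96 between the shams, and the locally made difference in B6 mice was -0.066. With single arrays left out, the liver-made median ran from 0.26 to 0.75 in B6 mice and from -0.77 to -0.18 between the shams, and the locally made median ran from -0.134 to -0.0131 in B6 mice and from -0.167 to -0.0083 between A/J CBDL and B6 CBDL. The cause of these shifts was not tested.

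Deviations from group means of arrays with the same replicate number correlated from -0.31 to 0.36. Arrays with different numbers were not examined, so this range cannot decide whether the numbers pair the arrays. With a replicate block, 6 members were called in A/J mice, 0 in B6 mice, 3 between the shams, 0 between A/J CBDL and B6 CBDL, 0 in the interaction and 8 averaged over strains. The block ended the A/J calls of Kng2 (adjusted p = 0.0519) and F9 (0.0898) and the call of F2r (0.0651).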
